A study of Caenorhabditis elegans with 36 samples.

Results

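Which mRNAs of WT animals were held on polysomes at day 1 of adulthood was read from 1 ratio per locus, the polysome-associated level divided by the level in total RNA. Members are the loci that carry 1 gene name and reached at least 1 FPKM in both WT groups, which left 11505 of the 41875 loci of the deposited table. FPKM stands for fragments counted per unit of transcript length and per unit of sequencing depth. It scales a level to transcript length and library size. WT animals were the *C. elegans* strain Bristol N2, grown without treatment on OP50 bacteria until they were gravid adults at day 1, so that each whole-animal lysate also held the embryos inside the mothers. Total RNA was extracted from total lysates, and the paper does not state whether before or after clearing. A sucrose gradient run with cycloheximide gave monosomes (80S ribosomes) and polysomes, with disomes left out of the latter. The same 3 fractions were taken at the same age from the mutant strains *ppp-1(wrm10)* and, separately, *ppp-1(wrm15)*, which carry chemically induced point mutations in a subunit of the initiation factor eIF2B and serve here only to show how far a WT ratio repeats in other libraries. By the labels, 36 libraries make up 9 groups of 4, but the deposited table holds 1 pooled value per group. The spread between libraries and their depth are therefore unknown, no difference below was tested, and every count rests on size alone.

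An mRNA that is being translated by several ribosomes at once sediments in the polysome fraction. An mRNA with a single ribosome sediments as a monosome, and an mRNA without ribosomes should be largely missing from both fractions. A low polysome ratio by itself therefore does not show that an mRNA is silent. The fractions are not pure, as non-coding RNA was measured in them too. The small nucleolar RNA F59C6.15 had 11850.2 FPKM in monosomes and 2061.29 in polysomes. Signal in a fraction is thus no proof of bound ribosomes. In the hermaphrodite gonad, oocytes and embryos depend on maternal mRNAs that are made early and kept silent by RNA-binding proteins such as GLD-1, the FBF proteins and OMA-1/OMA-2 until a given stage. Most somatic tissues of the adult, such as intestine, muscle and hypodermis, do not divide any more.

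The log2 ratio of polysome to total RNA had a median of 0.15 over the 11505 loci, with quartiles of -0.57 and 0.64 and a range from -7.93 to 1.93. At a threshold of 2-fold, 844 loci (7.34% of the loci compared) were rich in polysomes and 1777 loci (15.4%) were poor in them. The distribution was skewed, since 5% of the loci lay below -1.86 but 5% lay above only 1.07. Between 0.98 and 1 lay 77 loci and between 1 and 1.02 another 91, while 55 loci lay just inside -1 and 39 just beyond it. FPKM values are shares of a library, so the zero of the ratio depends on what else each fraction holds. Loci matched to protein-coding genes took 56.7% of the summed FPKM in total RNA, 75.5% in monosomes and 90.2% in polysomes. With the ratio centred on its median, 347 loci were rich and 2141 poor, so that the share of rich loci among all calls went from 32.2% to 13.9%, and no list of coding genes below had a median that changed sign.

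Gene types, which the rule did not use, differed in the ratio. Of the members, 11397 matched a gene of the WBcel235 annotation, 11112 of them protein-coding, 90 pseudogenes and 195 of other types. All 29 small nuclear RNAs, which work in splicing, were poor in polysomes, with a median log2 ratio of -3.15. Of the small nucleolar RNAs, which guide modification of ribosomal RNA, 90 of 97 were poor (median -2.80), as were 46 of 57 genes annotated as ncRNA (median -2.38) and 56 of 90 pseudogenes (median -1.54). Of the 11112 protein-coding loci, 838 (7.54%) were rich and 1531 (13.8%) were poor, with a median of 0.18. The 10 loci with the highest level in total RNA were all non-coding and all poor. The first of them was ZC155.8, annotated as *srpr-2.1*, an RNA of the signal recognition particle on chromosome III from 5211220 to 5211518, with 67945.5 FPKM in total RNA, 12842.4 in monosomes and 2256.19 in polysomes. A second copy, B0285.12, gave 44437.4, 8301.05 and 1445.32 FPKM. *rpr-1*, the RNA of RNase P, which trims tRNA precursors, went from 14872.7 FPKM in total RNA to 80.8 in polysomes, a log2 ratio of -7.52. *mrpr-1*, the related RNA of RNase MRP, gave 10519.9 and 370.0 FPKM (-4.83). The small nucleolar RNAs Y38F2AR.14 (-7.39), ZK185.9 (-7.35) and Y75B12B.12 (-5.13) lay as low, while F59C6.15 (-2.46) lay higher. The lowest ratio of any member was that of *lfor-1*, an ncRNA with 1425.76 FPKM in total RNA and 5.84 in polysomes (-7.93), and *yrn-1*, a homologue of the Y RNAs, lay at -7.39. The loci of Y38F2AR.14, ZK185.9, *rpr-1*, *yrn-1* and *lfor-1* span over 10 times the length of the annotated gene, that of B0285.12 spans 7.79 times, and each overlaps a protein-coding gene. How far reads of those genes entered the values was not tested. The 5 highest non-coding loci were *linc-170* (1.02), *rrn-3.1* (0.89), C39H7.70 (0.74), T05G5.17 (0.73) and T27A10.8 (0.72). Only *rrn-3.1*, a ribosomal RNA copy, was above 5 FPKM in total RNA, and it was listed at 0 in WT monosomes after the depletion of ribosomal RNA.

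**Figure D1:**
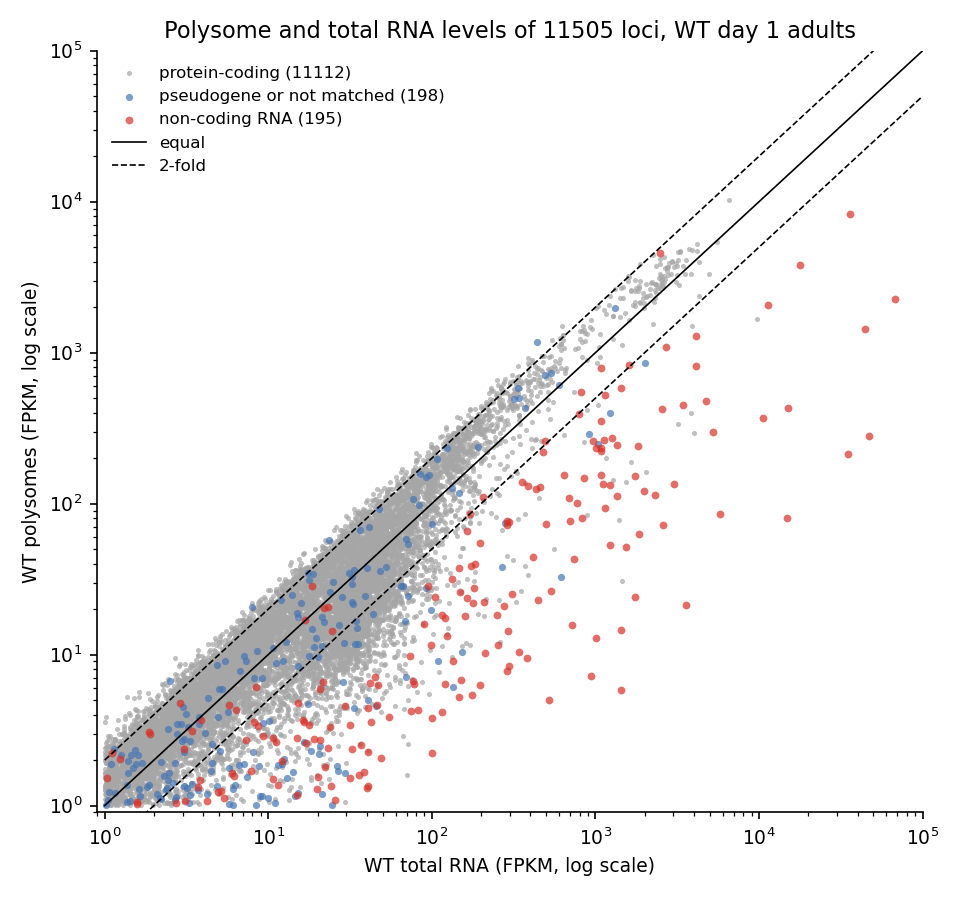
WT polysome level (vertical, FPKM, log scale) against WT total RNA level (horizontal, FPKM, log scale), 1 point per locus, for 11112 protein-coding loci (grey), 195 non-coding RNAs (red) and 198 pseudogenes or loci not matched (blue). The solid line marks equal levels and the dashed lines 2-fold. Most red points, among them all 29 small nuclear RNAs, lie below the lower dashed line.

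The WT ratios were close to those of the *ppp-1* strains, whose libraries are separate. The absolute difference from WT had a median of 0.13 in each mutant strain (11491 loci with a value for *wrm10* and 11487 for *wrm15*), with a 95th percentile of 0.54 and 0.57. Of the 1777 poor loci, 1389 (78.2%) were also poor in both mutants and 1766 lay below 0 in both. Of the 844 rich loci, 362 (42.9%) were also rich in both mutants and 833 lay above 0 in both. In these strains, 14.3% and 13.7% of the loci were poor and 5.51% and 6.21% were rich. The strains differ by genotype, so a difference between them is not a measure of the error in WT.

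The minimum in both groups decides which loci could be called. Of the loci with 1 name, 945 had at least 1 FPKM in total RNA but less in polysomes, and 452 had at least 1 FPKM in polysomes but less in total RNA. A further 25888 were below 1 FPKM in both, and 3085 loci join several gene names. Of the 945, 91 had at least 10 FPKM in total RNA, among them 33 small nucleolar RNAs, 20 ncRNAs, 13 tRNAs, 9 pseudogenes, 8 small nuclear RNAs and 6 protein-coding genes. The coding ones, named here after their values were seen, were F22F4.4 (34.3 FPKM in total RNA and 0.698 in polysomes), K04C1.5 (30.6 and 0.793), F31E3.6 (23.9 and 0.873), C04G6.6 (14.3 and 0.715), F22D6.8 (12.1 and 0.788) and Y106G6H.16 (11.4 and 0.592). With 1 FPKM required in total RNA alone and any value above 0 in polysomes, 2405 loci were poor. Near 1 FPKM a locus can hardly be called poor, as its polysome level would drop below the minimum: of the coding loci with 1 to 3 FPKM in total RNA 1.38% were poor, against 23.0% of those with 30 to 100 FPKM.

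The protein-coding mRNAs with the lowest ratios included regulators of the germ line. Among the 7192 coding loci with at least 10 FPKM in total RNA or polysomes, 1027 were poor in all 3 strains and 275 were rich in all 3. The 10 at each end are described here. A poor locus could meet this minimum through total RNA alone, and a rich one through polysomes alone. *nos-2*, a Nanos-family RNA-binding protein whose maternal mRNA is translated in the germ cell precursors of the embryo, lies on chromosome II from 7065618 to 7067051. It had 70.01 FPKM in total RNA, 7.06 in monosomes and 1.59 in polysomes, a log2 ratio of -5.46 (WT), -5.30 (*wrm10*) and -4.89 (*wrm15*). The polysome level was thus far below that of total RNA, and the monosome level was low as well. Passing 2-fold in all 3 strains was a condition for the loci described here. *nos-1*, a second Nanos gene (chromosome II, 10951592 to 10953165), went from 40.7 FPKM in total RNA to 2.29 in polysomes (-4.15). *fem-3*, which promotes sperm fate and is repressed by the FBF proteins at the switch from sperm to oocytes, went from 30.0 to 1.90 FPKM (-3.98). Its locus is on chromosome IV from 9104966 to 9107607. *his-67*, a histone H4 gene, went from 1396.66 to 77.6 FPKM (-4.17). *trcs-1* (chromosome IV, 9587096 to 9588834) went from 260.4 to 12.03 FPKM (-4.44).

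The lowest ratio of any coding locus past the minimum in both groups was that of F23A7.8, a gene of 1 exon for 67 residues on chromosome X (16213373 to 16213576). It had 1447.66 FPKM in total RNA, 111.2 in monosomes and 30.6 in polysomes (-5.56, and -5.20 and -5.05 in the mutants). F47B8.10 had 71.7 FPKM in total RNA and 2.54 in polysomes (-4.82), and T21C9.13 had 66.4 and 2.89 (-4.52). *pals-26*, of a large family of *C. elegans*, had 29.5 FPKM in total RNA and 1.05 in polysomes (-4.81), just above the minimum, and varied most of the 10 between the strains (-4.94 and -5.86). *fbxa-215*, an F-box protein, had 95.6 and 5.50 FPKM (-4.12). All 10 were low in monosomes too, with log2 monosome/total ratios from -3.70 to -1.59. The annotated span of *nos-2* overlaps *him-14* and that of *nos-1* overlaps *gst-5*, both on the other strand, and *pals-26* overlaps a pseudogene on its own strand. How far reads of these partners entered the values was not tested. The loci of *nos-2* and *his-67* span 3.45 and 1.56 times their genes.

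The 10 highest ratios of this selection were smaller in size and belonged to genes for short proteins. *ttr-5*, of the transthyretin-related family of secreted proteins (chromosome III, 9330316 to 9330928), had 13.9 FPKM in total RNA, 7.67 in monosomes and 40.7 in polysomes. Its log2 ratio was 1.56, with 1.33 in the *wrm10* and 1.42 in the *wrm15* strain. Its relatives *ttr-35* (1.48) and *ttr-6* (1.46) were among the 10 as well. *nspc-7*, of a nematode-specific peptide family, went from 13.5 to 39.1 FPKM (1.54). *nlp-26*, listed as a neuropeptide-like gene, went from 33.4 to 91.7 FPKM (1.46), and *irg-1*, an infection response gene, from 6.87 to 19.2 FPKM (1.48). *swt-6*, of the SWEET sugar transporter family, went from 4.27 to 11.7 FPKM (1.46), and the uncharacterised Y48G10A.6 (1.53), E04F6.9 (1.52) and K02F3.9 (1.52) completed the 10. Proteins of all 10 have 90 to 221 residues, and 9 of the 10 were below total RNA in monosomes, Y48G10A.6 (0.35) being the exception. *nlp-26* and *swt-6* overlap a coding gene on the other strand, and the locus of *swt-6* spans 2.24 times its gene. Y48G10A.6 (3.70 and 10.7 FPKM), *irg-1* and *swt-6* reached 10 FPKM in polysomes only.

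**Figure D2:**
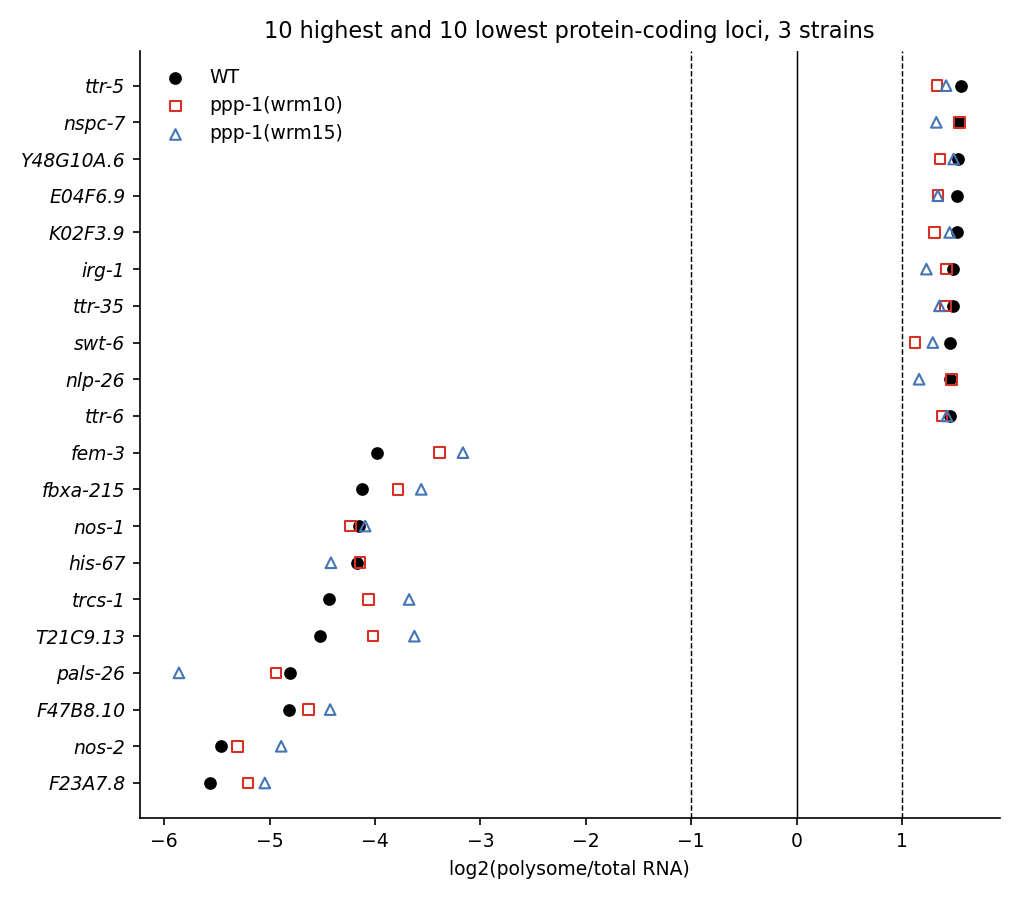
log2 ratio of polysome to total RNA (horizontal) of the 10 highest and 10 lowest protein-coding loci in WT (black circles), *ppp-1(wrm10)* (red squares) and *ppp-1(wrm15)* (blue triangles), each a pooled value with no error bar. Dashed lines mark 2-fold. The low end reaches -5.56 in WT (F23A7.8) and the high end 1.56 (*ttr-5*).

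Listed maternal mRNAs of the germ line lay low as a group. The 54 loci were listed from knowledge of GLD-1, OMA and related repressors, with earlier results of these data known. They include genes of repressors and of germ granules, such as *gld-1* and *pgl-1*. Of the 54, 34 (63.0%) were poor, 1 was rich and the median was -1.14, beside 13.8% and 0.18 over all coding loci. In both *ppp-1* strains 23 of them were poor as well. After *nos-2*, *pos-1* was the next lowest. It encodes a zinc-finger protein that sets cell fates in the early embryo and had 352.4 FPKM in total RNA, 55.9 in monosomes and 26.3 in polysomes (-3.75). *spn-4*, an RNA-binding protein of the early embryo, had 369.0, 70.9 and 38.3 FPKM (-3.27). *neg-1* (-3.19), *pal-1* (-2.97), *zif-1* (-2.58), *puf-6* (-2.58) and *apx-1* (-2.36) followed. PAL-1 is the embryonic homeodomain factor whose mRNA is repressed by MEX-3, ZIF-1 is a substrate adaptor for protein degradation in embryonic cells, and APX-1 is a Notch ligand. These genes other than *nos-2* were singled out after their values were seen.

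Other maternal mRNAs sat near the 2-fold line. *oma-1* (75.2 FPKM in total RNA and 37.3 in polysomes, -1.01) and *oma-2* (97.2 and 43.1, -1.17) encode redundant regulators of oocyte maturation. *mex-5* (-1.11), *puf-5* (-1.08) and *rme-2*, the yolk receptor of oocytes (326.5 and 165.4 FPKM, -0.98), were alike in size. *glp-1*, the germline Notch receptor, gave -1.82 and *tra-2*, which promotes female fate, gave -1.85. Both were less reduced in monosomes (-0.55 and -0.28). Other entries lay closer to 0: *gld-1* gave -0.47, *fbf-2* -0.13, *pgl-1* 0.03 and *pgl-3* 0.01, and the germ granule helicase *glh-1* gave 0.78. The highest of the list was *perm-4*, of the eggshell permeability barrier, with 200.8 FPKM in total RNA and 432.7 in polysomes (1.11). The genes of this paragraph other than *perm-4* were also chosen after their values were seen. Because whole animals were lysed, a low ratio in all cells that hold an mRNA cannot be told apart from silence in one part of the germ line and translation in another, nor fewer cells from less RNA per cell.

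Eggshell and egg activation genes lay on both sides of 0. Of 24 members (12 of them also in the maternal list), 13 (54.2%) were poor and 4 (16.7%) were rich, beside 15.4% and 7.34% of all loci. None lay between -0.55 and 0.56, and the median was -1.04. *cpg-2*, a chondroitin proteoglycan of the eggshell, was the most abundant, with 1029.74 FPKM in total RNA, 482.2 in monosomes and 448.8 in polysomes (-1.20). *egg-4* (58.9 and 11.8 FPKM, -2.32) and *egg-5* (-2.22), the inactive phosphatases that hold back the kinase MBK-2, and *cpg-8* (-2.11) were lowest, and *mbk-2* itself gave -1.54. *cbd-1* (-1.17), *cpg-1* (-1.08), *egg-1* (-1.04) and *egg-3* (-1.04) lay near -1. On the other side, *cpg-7* (43.9 and 103.8 FPKM, 1.24), *perm-4* (1.11), *cpg-3* (0.97), *perm-2* (0.96) and *cpg-9* (0.93) were higher in polysomes than in total RNA. In the mutants *egg-4* gave -2.18 and -1.98 and *cpg-7* gave 1.10 and 1.23. Other than *cpg-2*, *egg-4* and *cpg-7*, these genes were chosen after their values were seen. The locus of *cpg-7* spans 4.03 times its gene.

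Regulators of germline RNA had a median of -0.13 over 33 members, 8 of them also in the maternal list. Of the 33, 7 (21.2%) were poor and 1 (3.03%) was rich, beside 15.4% and 7.34% of all loci. *car-1* (392.1 FPKM in total RNA, 828.8 in polysomes, 1.08) and *cgh-1* (464.6 and 770.6, 0.73), which act together in germ granules, were high, and *dcap-2*, the mRNA decapping enzyme, was lowest (21.3 and 6.04, -1.82). *gld-3* (-1.81) and *meg-3* (-1.70), named after their values were seen, were close to it. Of 79 genes of mitosis and meiosis (kinesins, cyclins, kinetochore, cohesin and synapsis genes), 26 (32.9%) were poor, beside 15.4% of all loci, none was rich at 2-fold, 8 lay above 0 and the median was -0.73. *cyb-3*, a B-type cyclin, was the most abundant, with 267.8 FPKM in total RNA, 73.0 in monosomes and 66.7 in polysomes (-2.005). The other B-type cyclins *cyb-2.1* (-2.48), *cyb-2.2* (-2.27) and *cyb-1* (-0.95) were named after their values were seen and lay below 0 too. The lowest entry, *klp-10* (-2.92), is annotated as a pseudogene, and *syp-1*, of the synaptonemal complex, was highest (0.52).

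Histones were the lowest coding group. Of 51 members, 40 (78.4%) were poor, beside 15.4% of all loci, 1 was rich and the median was -2.88. All 40 were poor in both *ppp-1* strains too. *his-64*, a histone H4 gene, had 4020.57 FPKM in total RNA, 487.0 in monosomes and 292.8 in polysomes (-3.78). *his-67* (above) was lowest and *hil-1*, a linker histone, was highest (1.70 and 4.199 FPKM, 1.302). Histone genes that are read during DNA replication have no introns in most animals, and their mRNAs end in a stem-loop in place of a poly(A) tail. Of the 37 members with a single exon, 36 were poor, with a median of -3.18 and a monosome/total median of -2.71. The exception was *his-70* (0.18), a variant of histone H3. Of the 14 members with introns, 4 were poor, with a median of 0.02. These 4 were the centromeric histones *hcp-3* (-1.56) and *cpar-1* (-2.10), the H2A variant *htz-1* (-1.43) and the linker histone *hil-4* (-1.18). The H3.3 genes *his-71* (0.50) and *his-72* (-0.22) and the intron-bearing *his-35* (0.71) and *his-37* (0.54) were near or above the centre. The division by exons was made after the values were seen. Copies of a histone type are almost identical in sequence, so the values of single copies are uncertain, and 33 of the 51 loci span over 1.2 times the annotated gene.

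Transcripts of the mitochondrial genome are translated on mitochondrial ribosomes. All 7 members were poor in polysomes, with log2 ratios from -2.24 to -1.24, and all 7 were at or above total RNA in monosomes, with ratios from 0.08 to 0.62. *ctc-1*, which encodes a subunit of cytochrome c oxidase, had 2016.02 FPKM in total RNA, 2699.69 in monosomes and 853.5 in polysomes (-1.24). *ctc-3* (-2.07), *nduo-4* (-1.90), *ctc-2* (-1.67) and *ctb-1* (-1.62) were lower. The other entries were the mitochondrial ribosomal RNAs MTCE.7 (35774.6 FPKM in total RNA, -2.10) and MTCE.33 (17871.2, -2.24), and 18 further genes of this genome were below the minimum. In contrast, the nuclear genes whose proteins work in mitochondria were above the centre. Of 60 nuclear subunits of the respiratory chain, 56 lay above 0, 3 (5%) were rich, beside 7.34% of all loci, and none was poor (median 0.52). *atp-2*, a subunit of ATP synthase, was the most abundant (1275.97 FPKM in total RNA, 1755.3 in polysomes, 0.46), Y56A3A.19 (*ndab-1*) was the highest (1.07) and T20G5.14 (*cox-14*) the lowest (-0.49). Of 69 mitochondrial ribosomal proteins, 65 lay above 0 and none passed 2-fold (median 0.44), between *mrps-11* (-0.62) and *mrpl-24* (0.96), with F02A9.4 (*mrpl-44*) the most abundant (0.74).

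Most genes of the translation machinery lay near or above the median of all loci. Cytosolic ribosomal proteins had a median of 0.22 over 76 members, close to that of all loci, with quartiles of 0.08 and 0.36. The highest was *rpl-11.1* (1860.07 FPKM in total RNA and 3886.43 in polysomes, 1.06), and 5 were poor in all 3 strains. One of these, its paralogue *rpl-11.2*, had 845.3 FPKM in total RNA and 254.7 in polysomes (-1.73). *rps-12* (3898.69 and 1495.0, -1.38) and *rpl-25.1* (373.4 and 84.8, -2.14) were also poor, and like *rpl-11.2* they were below total RNA in monosomes (-1.07, -1.64 and -0.81). *rpl-41.1* and *rpl-41.2* were different. These genes encode the shortest ribosomal protein, with 22 residues in the annotation. *rpl-41.2*, on chromosome I from 4790292 to 4790642, had 9765.56 FPKM in total RNA, 22197.4 in monosomes and 1670.99 in polysomes. Its polysome/total ratio was -2.55 and its monosome/total ratio 1.18. *rpl-41.1* had 449.6, 1794.16 and 109.0 FPKM, with ratios of -2.04 and 2.00. Both were thus higher in monosomes and lower in polysomes than in total RNA. Apart from *rpl-41.2* and *rpl-11.1* these ribosomal protein genes were named after their values were seen, and the locus of *rpl-41.2* spans 6.46 times the annotated gene.

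Translation factors had a median of 0.57 over 44 members, with 2 (4.55%) rich and 1 (2.27%) poor, beside 7.34% and 15.4% of all loci. *eef-1A.1*, the elongation factor that brings tRNA to the ribosome, had 6514.12 FPKM in total RNA and 10280.0 in polysomes (0.66). The cap-binding proteins marked both ends, *ife-4* (1.19) and *ife-5* (-1.17). Of 31 aminoacyl-tRNA synthetases, 24 lay above 0 (median 0.59), with *kars-1* the most abundant (303.7 and 446.1 FPKM, 0.55), *dars-1* the highest (0.93) and *rars-2* the lowest (-1.05). Of 32 proteasome subunits, 31 lay above 0 and 4 (12.5%) were rich (median 0.68), among them *pas-4* (131.6 and 280.0 FPKM, 1.09). The exception was *rpn-6.2* (-0.80), a paralogue of *rpn-6.1*, and the most abundant was *pbs-1* (0.45). Cytosolic chaperones (median 0.72, 2 of 21 rich, none poor) ran from the heat shock regulator *hsf-1* (-0.72) to *hsp-12.1* (1.39), and *hsp-1*, the constitutive HSP70, gave 1439.1 and 2672.68 FPKM (0.89). Folding enzymes of the endoplasmic reticulum had a median of 0.49 over 17 members, from *sel-1* (-0.31) to *fkb-5* (1.06), with *crt-1*, or calreticulin, at 0.49. Vacuolar ATPase subunits had a median of 0.29 over 18 members, from *vha-7* (-1.17) to *vha-12* (0.86), and *vha-2* gave 0.43. Tubulins and actins had a median of 0.48 over 16 members, 4 of them also among the sarcomere genes below. They ran from *tba-9* (-0.28) to *tbb-6* (1.10), and *tbb-2* gave 0.22.

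**Figure D3:**
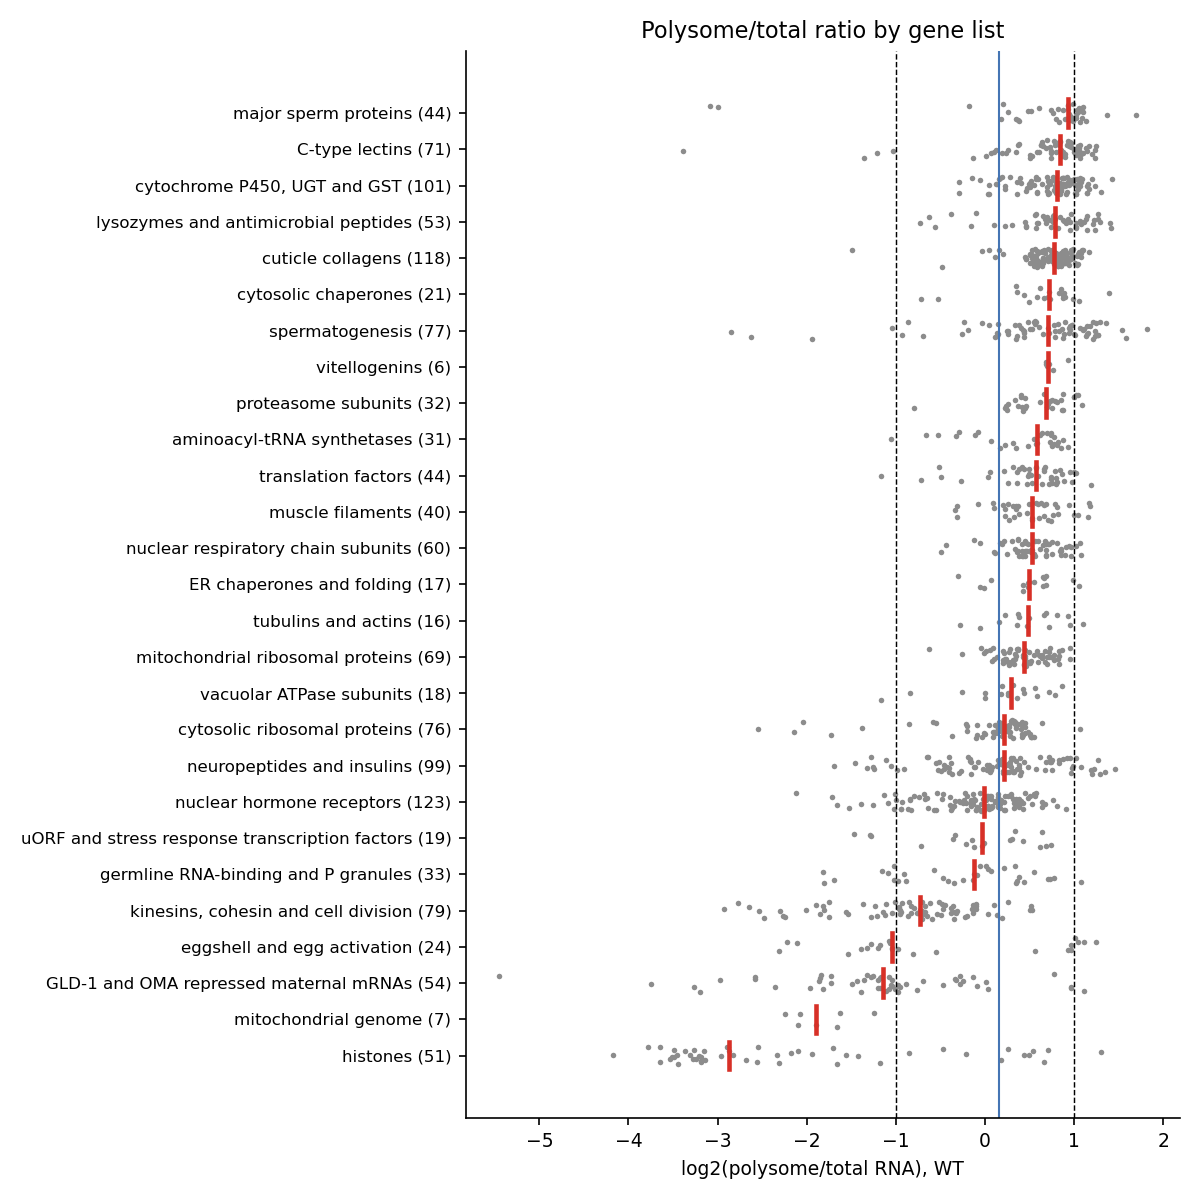
log2 ratio of polysome to total RNA in WT (horizontal) for 27 gene lists, with 1 grey point per locus and the number of members in brackets. Points are spread vertically at random only to keep them apart. Red bars are list medians, the blue line is the median over the 11505 loci (0.15) and dashed lines mark 2-fold. Histones (-2.88) lie lowest and the major sperm proteins (0.93) highest.

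Secreted and structural products of somatic tissues were above the centre, most of them by less than 2-fold. All 6 vitellogenins, the yolk proteins that the intestine makes for the oocytes, lay between 0.68 (*vit-2*) and 0.93 (*vit-1*). *vit-6* had 2610.06 FPKM in total RNA, 4226.06 in monosomes and 4278.6 in polysomes (0.71). Vitellogenin mRNAs are long, and all 6 were above total RNA in monosomes too (median 0.71). Of 118 cuticle collagens, 3 lay below 0, 12 (10.2%) were rich, 1 of them in all 3 strains, and 1 was poor. Over all loci 7.34% were rich. The collagen median was 0.77, and their monosome/total median was -0.71. *col-140* had 2473.15 FPKM in total RNA, 1355.21 in monosomes and 3893.21 in polysomes (0.65), and *col-49* was highest (37.5, 16.7 and 84.0 FPKM, 1.16). The exception was *dpy-10* (3.64 and 1.29 FPKM, -1.49), near the minimum. Of 40 sarcomere genes, 36 lay above 0 and 5 (12.5%) were rich, 1 of them in all 3 strains (median 0.52). The myosin light chain *mlc-2* gave 823.3 and 1182.67 FPKM (0.52), while the troponin T genes marked both ends, *tnt-4* (1.18) and *tnt-3* (-0.34).

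**Figure D4:**
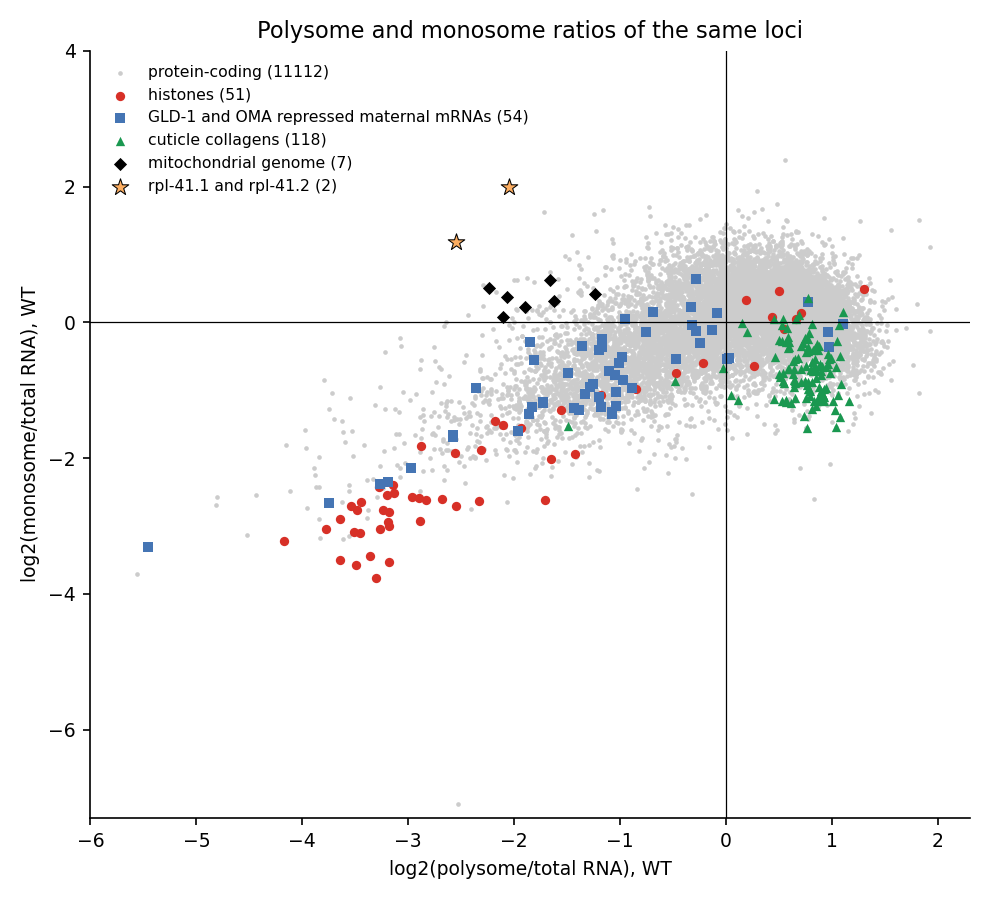
log2 ratio of monosome to total RNA (vertical) against that of polysome to total RNA (horizontal) in WT for 11112 protein-coding loci (light grey), with histones (red circles), maternal mRNAs (blue squares), cuticle collagens (green triangles), the mitochondrial genome (black diamonds) and *rpl-41.1* and *rpl-41.2* (orange stars). Both axes divide by the same total RNA value, so a diagonal cloud follows in part from the shared denominator. Histones lie low on both axes, *rpl-41.1* lies at -2.04 and 2.00, and the collagens lie to the right and below 0.

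The lists of sperm and of defence genes had higher shares of rich mRNAs than the 7.34% over all loci. Their median protein length was 127 residues for major sperm proteins, 109 for other spermatogenesis genes and 104 for lysozymes and antimicrobial peptides. It was 367 for C-type lectins and 506.5 for the cytochrome P450 group. Of all coding loci for 100 to 199 residues, 18.5% were rich. A link of these shares with length was not tested. Of 44 major sperm proteins, which form the cytoskeleton of nematode sperm, 13 (29.5%) were rich, 2 were poor and the median was 0.93, but none of the 13 was rich in both mutants as well. *msp-40* had 352.8 FPKM in total RNA and 649.1 in polysomes (0.88), and *msp-58* was highest, close to the minimum (1.61 and 5.23 FPKM, 1.70). The 2 poor entries, *msp-42* (-3.08) and *msp-71* (-2.999), are annotated as pseudogenes. The median was 0.46 and 0.40 in the mutants, and *msp-40* gave 0.14 and 0.15 there. These copies are near-identical in sequence, so that values of single genes are uncertain. Of 77 loci listed by name as other spermatogenesis genes, 22 (28.6%) were rich, 11 of them in all 3 strains, and 4 were poor. Their median was 0.71 in WT and 0.42 and 0.35 in the mutants. The names taken include nematode-specific peptide families, such as that of *nspc-7* above. These shares need not be those of sperm genes alone. *nspd-2* was the most abundant (390.4 and 708.4 FPKM, 0.86), *nspc-15* the highest (2.69 and 9.52 FPKM, 1.82) and *cpb-1* the lowest (17.3 and 2.39 FPKM, -2.85). CPB-1 is an RNA-binding protein needed for spermatogenesis.

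Among defence genes, 17 of 53 lysozymes and antimicrobial peptides (32.1%) were rich, 11 of them in all 3 strains, and none was poor (median 0.78, and 0.84 and 0.92 in the mutants). The lysozyme *ilys-5* was the most abundant, with 1234.9 FPKM in total RNA, 822.3 in monosomes and 2364.2 in polysomes (0.94). F23F1.7 (*spp-24*) was highest (1.42) and R74.10 (*spp-28*) lowest (-0.73). Of 71 C-type lectins, 20 (28.2%) were rich, only 4 of them in all 3 strains, and 4 were poor (median 0.84), with *clec-83* at the top (28.2 and 67.0 FPKM, 1.25). The most abundant lectin was also the lowest: *clec-87* had 889.2 FPKM in total RNA, 120.3 in monosomes and 84.7 in polysomes (-3.39, and -2.97 and -2.86 in the mutants). It overlaps *iars-2* on the other strand. Of 101 cytochrome P450, UDP-glucuronosyltransferase and glutathione S-transferase genes, 97 lay above 0 (median 0.81). Of the 101, 23 (22.8%) were rich, 8 of them in all 3 strains, and none was poor. *gst-1* was the most abundant (194.8 and 357.2 FPKM, 0.87), *cyp-25A1* the highest (1.19 and 3.19 FPKM, 1.43) and *cyp-31A5* the lowest (-0.29). Of these lists, 55, 193 and 88 further genes were below the minimum in at least 1 group and were not described.

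Signalling genes lay on both sides of 0. Neuropeptides and insulins had a median of 0.21 over 99 members, with 9 (9.09%) rich and 8 (8.08%) poor. Over all loci these shares were 7.34% and 15.4%. *nlp-24* was the most abundant (272.1 and 618.4 FPKM, 1.18) and *nlp-17* the lowest (4.44 and 1.38 FPKM, -1.69). The rich ones included *nlp-26* and, named after their values were seen, *nlp-27* (1.34), *nlp-30* (1.27) and *nlp-34* (1.195) of the antimicrobial *nlp-29* cluster of the hypodermis. Nuclear hormone receptors, ligand-regulated transcription factors, had a median of -0.02 over 123 members, with 10 (8.13%) poor and none rich at 2-fold. *nhr-97* went from 70.9 FPKM in total RNA to 16.3 in polysomes (-2.12) with 74.6 in monosomes, *nhr-114* was the most abundant (-0.67) and *nhr-69* the highest (0.91). Of 123 receptors, 91 were at or above total RNA in monosomes, beside 47.4% of all coding loci.

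Stress response transcription factors had a median of -0.04 over 19 members, 3 of them (15.8%) poor, beside 15.4% of all loci. *xbp-1*, of the unfolded protein response, was the most abundant (101.8 and 93.4 FPKM, -0.12), *elt-2*, the intestinal GATA factor, the highest (0.74) and *cebp-2* the lowest (33.5 and 12.1 FPKM, -1.47). The factor listed as *atf-5*, now also called *atf-4*, is translated under the control of upstream reading frames that normally hold ribosomes back. It had 29.2 FPKM in total RNA, 52.6 in monosomes and 11.96 in polysomes, a polysome/total ratio of -1.29 and a monosome/total ratio of 0.85. The polysome/total ratios in the mutants were -1.36 and -1.41. It was singled out after its values were seen.

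The monosome values divide the poor mRNAs. Of the 1531 poor coding loci, 633 (41.3%) were at least 2-fold lower in monosomes than in total RNA, beside 8.33% of all coding loci, and 137 (8.95%) were at or above total RNA, beside 47.4%. Of the 838 rich loci, these were 22 (2.63%) and 347 (41.4%). All these ratios share the total RNA value, which by itself moves them together. Only 11 poor loci were at least 2-fold higher in monosomes, beside 2.12% of all coding loci. Over loci of every type, 2.18% were at least 2-fold higher and 9.27% at least 2-fold lower in monosomes than in total RNA. After *rpl-41.1*, the largest monosome ratios of these were those of *gsa-1* (1.65), *oac-57* (1.62), C30G7.2 (1.60), *egl-30* (1.34), *rsbp-1* (1.29) and *crtc-1* (1.22). *gsa-1* encodes the stimulatory G protein alpha subunit and had 17.2 FPKM in total RNA, 54.1 in monosomes and 7.72 in polysomes (-1.16). *egl-30* encodes the Gq alpha subunit and had 41.0, 103.7 and 17.5 FPKM (-1.22). CRTC-1 is a coactivator of CREB. The other 4 were F58A6.9, *rpl-41.2*, C08G9.1 and *fbxa-55*. The 11 were named after their values were seen, and of them *fbxa-55* and C08G9.1 were not poor in *ppp-1(wrm10)* (-0.28 and -0.76).

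Protein length, which the rule did not use, went with both ratios in different ways. Coding loci for 100 to 199 residues had the highest median (0.45, n = 1863), with 18.5% rich and 11.2% poor. The median was 0.27 for 200 to 399 residues (n = 3718), 0.05 for 400 to 799 (n = 3543) and -0.18 for 800 to 1599 (n = 1172), where only 0.427% were rich. Of 269 loci for 1600 residues or more none was rich, their polysome median was -0.06 and their monosome/total median was 0.59, the highest of all bins. At the other end, 12 of the 20 loci for under 50 residues were poor and none was rich, with a median of -1.56 in polysomes and 0.41 in monosomes. Among these, named after their values were seen, ZK686.1 (44 residues) had 133.4 FPKM in total RNA, 74.1 in monosomes and 9.62 in polysomes (-3.79), and F20D12.12 (25 residues) had 27.9, 20.7 and 2.99 FPKM (-3.22). F23A7.8, for 67 residues, was low in both fractions. Over 11112 loci, Spearman's rho of the polysome/total ratio with protein length was -0.23, and that of the monosome/total ratio was 0.18. Both are descriptions across genes of the same pooled libraries, and genes are not independent replicates.

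**Figure D5:**
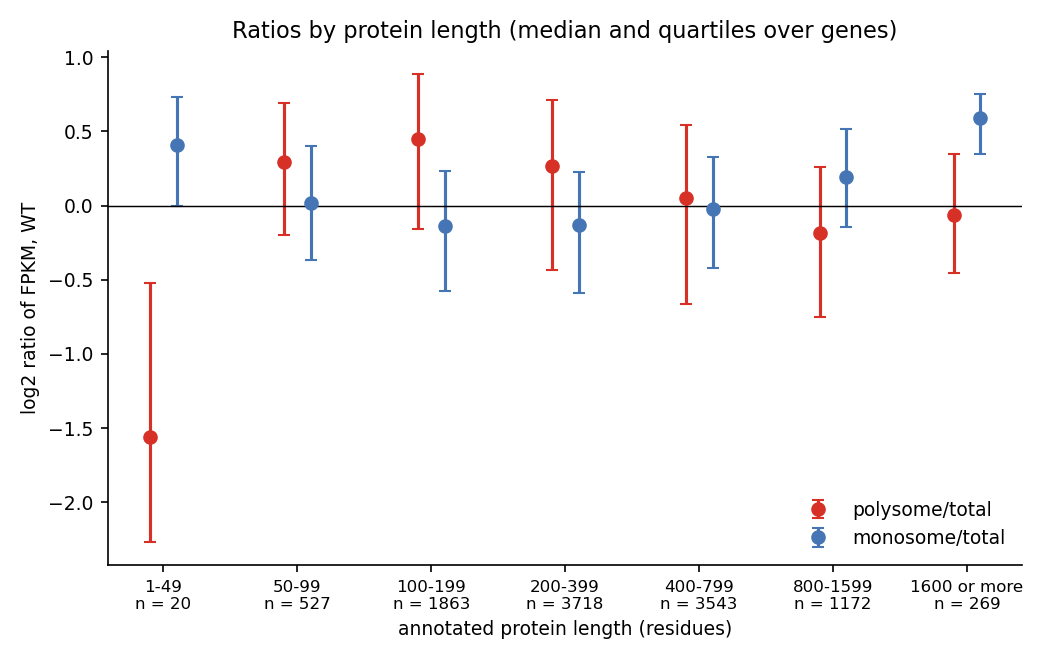
log2 ratio of polysome to total RNA (red) and of monosome to total RNA (blue) in WT by annotated protein length in residues. Points are medians over the genes of a bin and bars run from the lower to the upper quartile over genes, not over replicates. The shortest bin (n = 20) has a polysome median of -1.56 and a monosome median of 0.41, and the longest bin (n = 269) has -0.06 and 0.59.

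The 3′ UTR, which holds most known binding sites of germline repressors, was longer in poor mRNAs. Its median annotated length was 193 bases in the poor coding loci, 91 bases in the rich ones and 140 bases over all 10459 coding loci with an annotated 3′ UTR. The share of poor loci went from 6.31% for a 3′ UTR under 50 bases (n = 1141) to 23.2% for 800 bases or more (n = 311), and the share of rich loci from 11.7% to none of 311. Spearman's rho of the ratio with 3′ UTR length was -0.26. Length of protein and of 3′ UTR were not separated here, as the median protein also lengthened over these bins, from 296 to 506 residues.

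Genes on the X chromosome, which is largely silent in the germ line, differed from autosomal genes. Of 1438 X-linked coding loci, 11.5% were rich and 3.34% were poor, with a median of 0.48, beside 6.96%, 15.3% and 0.12 for the 9674 autosomal ones. The 2 groups were not compared at like levels in total RNA, on which the share of poor loci depends through the minimum. Over all coding loci, 1.38% were poor at 1 to 3 FPKM and 23.0% at 30 to 100 FPKM. A link of the X values with level was not tested. The autosomes ran from chromosome III (median -0.05, 15.4% poor) and chromosome I (-0.01, 17.6% poor) through II (0.12) and IV (0.22) to chromosome V (0.28, 13.9% poor and 10.4% rich). The median was higher on the X chromosome in each bin of protein length from 50 residues upward, but the share of rich loci was not: for 50 to 99 residues it was 8.20% on the X chromosome and 11.6% on autosomes, and for 1600 or more it was 0 on both. Of proteins with 100 to 199 residues, the median was 0.79 on the X chromosome and 0.41 on autosomes, and of those with 400 to 799 residues it was 0.40 and -0.01. The X-linked F23A7.8 nevertheless had the lowest ratio of the coding loci past the minimum.

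Most markers of the tissues in the animals are also members of the lists above, so their values are no separate result. All the oocyte markers are in the maternal list, and all the muscle markers are among the sarcomere genes. The 7 oocyte and early embryo markers had ratios from -3.75 (*pos-1*) to -0.98 (*rme-2*) at 75.2 to 639.7 FPKM in total RNA. The 6 intestinal markers lay between 0.68 and 1.16, the 5 muscle markers between 0.59 and 0.74, the 3 measured hypodermal ones between 0.65 and 0.99 and the 5 measured sperm ones between 0.12 and 1.13. Neurons were mixed, with *rab-3* at 1.03 and *flp-1* at 1.02 but *snb-1*, the synaptic vesicle protein synaptobrevin, at -0.75. Of 6 markers of zygotic transcription in embryos, 1 passed the minimum, *hlh-1* at 1.72 FPKM in total RNA.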

How the data were processed

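Libraries of WT and both mutant strains were made from RNA depleted of ribosomal RNA. The authors aligned reads to WBcel235 with HISAT2 2.1.0, assembled with StringTie 1.3.4d, merged with Cuffmerge and quantified with Cuffquant and Cuffdiff (Cufflinks 2.2.1) on the annotation of Ensembl 91. The authors deposited 1 FPKM value per group, computed from its 4 libraries. For the library normalization, the option chosen is not stated in the sources used here. The authors' own comparisons in the same table (log2 fold changes, statistics, p-values, q-values) were not used.

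Per locus, log2(polysome/total) was computed without a pseudocount for loci with 1 name and at least 1 FPKM in both groups. At least 2-fold was called rich or poor. No test was run on the pooled values, and depth and its precision are unknown. Gene types, lengths and coordinates come from Ensembl 115 (WBcel235), matched by name and overlapping position for 11397 loci, with the longest coding sequence of each gene, and 108 loci were not matched. Lists were built from gene names. Of the members, 2562 span over 1.2 times their gene, which is stated above for only some of the genes named. Among the rest are *gst-1* (14.6 times), *mrpl-24* (5.72), *nhr-114* (5.57), *mrps-11* (5.32), *mlc-2* (5.28), *nlp-24* (4.38) and *lbp-6* (4.13). Members and lists were chosen with earlier results of these data known. A name pattern for chemoreceptors also took serpins and signal recognition particle RNAs, and one for lincRNAs found 3 members, so neither is described as a list. A run on simulated data with set folds checked the arithmetic of the ratio and the counting only.

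Named genes were the 10 highest and 10 lowest coding loci past 2-fold in all 3 strains with at least 10 FPKM in total RNA or polysomes, the most abundant, highest and lowest member of each list, the 10 highest in total RNA and the 5 highest and 5 lowest non-coding loci. Alternatives were other thresholds, centring, pseudocounts (0.1 and 1 FPKM), minimum values, joined names, coding loci only, locus spans, the monosome denominator and the mutant strains. Analyses used Python 3.11.15, pandas 2.3.3, numpy 2.4.6 and SciPy 1.17.1.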

Additional observations from a re-analysis of the deposited data

Results flagged for a closer look

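In 7 loci, the WT ratio passed 2-fold while the ratio had the opposite sign in both *ppp-1* strains. The differences were not tested, since each is between pooled values. Y94H6A.7 had a WT ratio of -2.53 and mutant ratios of 0.53 (*wrm10*) and 0.18 (*wrm15*). Its WT level was 1156.91 FPKM in total RNA and 200.2 in polysomes but 8.48 in monosomes, whereas total RNA of the mutants held 8.84 and 11.2 FPKM, so the levels themselves differ more than the ratios. It overlaps the ncRNA Y94H6A.15 on the same strand. The small nucleolar RNA C46C2.8 gave -1.79 in WT and 0.33 and 0.05 in the mutants, at 431.7, 184.1 and 256.8 FPKM in total RNA. The remaining loci lay below 6 FPKM in WT: C41H7.9 (1.26 in WT, -0.21 and -1.22 in the mutants), F53F4.17 (1.18, -0.30 and -0.66), K03B4.6 (1.11, -0.05 and -0.29), H12I13.6 (-1.30, 0.80 and 0.09) and *linc-170* (1.02, -1.88 and -4.23). K03B4.6 had 1.63 FPKM in WT total RNA and 10.7 and 11.8 in the mutants.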

How the results depend on the processing

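Main counts were 844 rich and 1777 poor loci. A threshold of 1.5-fold gave 3186 and 2834, and one of 4-fold gave 0 and 482. Outside the minimum, 2 loci had 10 FPKM or more in polysomes and under 1 in total RNA. Centring on the median of the members left 347 rich loci and centring on that of coding loci 295. Adding 1 FPKM left 514 rich loci, a minimum of 5 FPKM left 546 of 7919 loci, and no minimum gave 1606 rich and 3565 poor of 17443. With monosomes as the denominator, 1080 loci were poor. The other 23 counts, among them those in the mutants, stayed within 1.5 times the main ones. Shares of rich and poor loci by protein length were less steady, counted as moved in 12 recomputations and as unchanged in 30. In each mutant strain 5 moved and 9 did not. Of the ratios past 2-fold that the fixed rules named, *dpy-10* (0.035) and *linc-170* (-0.27) changed sign over monosomes. Genes named after their values were seen or flagged were not counted there, and some changed sign too. Among them were *puf-5* (0.25), Y94H6A.7 (4.56) and C41H7.9 (-0.23). *linc-170* was also below 0 in both mutants (-1.88 and -4.23), where it was under the minimum in polysomes. List medians moved by 0.25 or more in 38 of 432 recomputations, 15 of them over monosomes. There, the median changed sign for muscle filaments (-0.13) and vacuolar ATPase (-0.03) and was near 0 for vitellogenins (0.0014), eggshell genes (-0.05) and histones (-0.21). The median of nuclear hormone receptors (-0.02) crossed 0 in 3 recomputations. No paired analysis was possible because values were pooled per group, so no replicate could be left out. Codon content and 3′ UTR motifs were not run, as no genome sequence was used here.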

Other observations

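Further families were collected after the values were seen, so their shares only describe how they were found. Over all loci 7.34% were rich and 15.4% were poor. Of 48 transthyretin-related genes, 28 (58.3%) were rich and none was poor (median 1.13), and 23 were rich in all 3 strains. Their median was -0.31 in monosomes relative to total RNA. *ttr-2*, the third in level in total RNA, had 171.4 FPKM in total RNA, 151.5 in monosomes and 424.1 in polysomes (1.31). Of 9 lipid-binding proteins, which carry fatty acids, 7 were rich (median 1.14), among them the intestinal *lbp-6* with 542.3 FPKM in total RNA and 1206.72 in polysomes (1.15). Saposin-like proteins (9 of 17 rich, median 1.02) and galectins (5 of 11 rich, median 0.95) followed, and part of the saposin-like genes is also in the list of antimicrobial peptides above. *puf-5* and other Pumilio genes are also in the maternal list.

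At the low end, where 15.4% of all loci lay, 11 of 19 genes with MATH and BTB domains were poor (median -1.23), led by *bath-30* (-2.63). Proteins with these domains act as adaptors for protein degradation. Of 9 genes of the Pumilio family of translational repressors, 6 were poor (median -1.16), from *puf-10* (-3.83), annotated as a pseudogene, to *puf-12* (0.58). Components of the transcription machinery were low as well, with 8 of 19 Mediator subunits (median -0.91), 7 of 16 subunits of TFIID (median -0.76) and 10 of 24 SET domain proteins, many of them histone methyltransferases (median -0.92), poor and none rich at 2-fold. *mdt-15*, a Mediator subunit that controls lipid metabolism, gave 0.02, and *mdt-26* gave -1.83.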
